A study of Eptatretus atami with 13 samples.

Results

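The 9 gene models EA52705, EA53766, EA53431, EA54135, EA55199, EA52564, EA54293, EA55174 and EA55110 belong to a keratin cluster on chromosome 14 of the brown hagfish *Eptatretus atami*, and each had its highest level in the slime gland. They were chosen by that measured level, so their high slime gland values are a description of the choice and not a finding. They are 9 of the 14 gene models between 8.3 and 8.7 Mb on this chromosome, which carries 1684 of the 37562 models counted. RNA was sequenced from slime gland, skin, gills, ovary, brain, heart, intestine, liver, kidney, gall bladder, adipose tissue, blood cells and tongue muscle, with 1 library per organ. All 13 libraries are labelled wild type, share a treatment label of normal embryonic development and a cell type label that names the whole organism, and the labels do not say which animals were used. No replicate error exists, no test between organs was made, and every interval below is a 95% exact interval that covers counting error only.

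Keratins are intermediate filament proteins whose central coiled-coil rod lets them pair and assemble into filaments. Hagfish slime glands hold gland thread cells, each of which packs a long coiled thread made largely of such α-keratin-like proteins, together with gland mucous cells that release vesicles of mucus. On contact with sea water the threads uncoil and, with the mucus, form the fibrous slime for which hagfish are known.

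Of the 9 models, 7 were at positions annotated in the study's source table, of which only a part was used. The Filament domain, the rod that defines the intermediate filament family, was listed at 4 of them, EA53431, EA54135, EA54293 and EA55110. EA55174 carried no domain but was placed in the same gene family as these 4, with an assigned origin in vertebrates. EA55199 and EA52564 had no domain and no family, and were assigned an origin in this species itself. EA52705 and EA53766 were not annotated there, and they are called keratin models here by their place in the cluster and by the exon structure described below.

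The members extended over 261 kb from the start of EA52705 to the end of EA55110. In order along the chromosome they were EA52705 (8391559 to 8400722) and EA53766 (8405489 to 8413190) on the plus strand, then EA53431 (8414568 to 8429638), EA54135 (8466149 to 8470031), EA55199 (8482900 to 8483367), EA52564 (8488154 to 8488553), EA54293 (8550394 to 8554601) and EA55174 (8591200 to 8592553) on the minus strand, and last EA55110 (8649395 to 8652687) on the plus strand. Thus 3 members were on the plus strand and 6 on the minus strand, the latter as an unbroken run. The closest neighbours were EA53766 and EA53431, which point towards each other and are 1377 bases apart, and the widest gap, of 61840 bases, separated EA52564 from EA54293. The only other models between members, EA54913 and EA52975, lie in that gap and had no count in any of the 13 libraries. None of the 9 members overlapped the span of another model, so their counts were not shared with an overlapping gene, although reads that matched several copies equally well were left out by the counting.

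In slime gland the members together took 4606037 of the assigned counts, or 15.9% of the library (15.9 to 15.9), from 0.0268% of the exon bases of all models. They accounted for 85.0% of all counts on chromosome 14 in that library. EA55110, with 1513551 counts, took 5.23% of the library (5.22 to 5.24), and EA54293 took 5.05% (5.04 to 5.07). EA55174 followed with 3.29% and EA54135 with 1.45%. The remaining 5 were below 1%, with 0.371% for EA53431, 0.235% for EA55199, 0.179% for EA52564, 0.0675% for EA53766 and 0.0339% for EA52705. The 3 members with the most counts thus held 85.3% of the members' counts.

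Because the models differ in length, their levels were compared as FPKM, in which each count was scaled by the exon length of the model and by the assigned total of the library. EA55110 had 46492 FPKM (46387 to 46597), the highest level of all 37562 models in slime gland. EA55174 had 40194 FPKM (40080 to 40309) and ranked 3, and EA54293 had 33382 FPKM (33305 to 33458) and ranked 4. These 3 members formed an upper group with 83.0% of the members' summed FPKM.

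A middle group was made up of EA52564 with 8271 FPKM, EA55199 with 7594 FPKM and EA54135 with 6539 FPKM, at ranks 16, 20 and 23. EA53431 had 1725 FPKM at rank 45. EA53766 had 321 FPKM (314 to 327) and EA52705 had 159 FPKM (155 to 164), at ranks 171 and 340, so that the highest member stood 292-fold above the lowest. The largest steps between neighbours in this order were from EA53431 to EA53766, 5.38-fold (5.26 to 5.49), from EA54293 to EA52564, 4.04-fold (3.99 to 4.09), and from EA54135 to EA53431, 3.79-fold (3.76 to 3.83). The smallest step was from EA52564 to EA55199, 1.09-fold (1.07 to 1.11).

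The order of the 9 levels was the order of the models along the chromosome. The level was lowest in EA52705, at the low-coordinate end, and higher in each next member up to EA55110, across both changes of strand. The same order held when the read length of 150 bases was taken off the exon length. It did not hold in the middle group when the read length was added, since EA54135, with 6129 FPKM, then exceeded EA55199 with 5123 FPKM and EA52564 with 4895 FPKM. The counts themselves, which grow with length, did not follow the order either, with 421028 for EA54135 against 67901 for EA55199 and 51700 for EA52564. EA55199 and EA52564 are the shortest members, at 309 and 216 exon bases, so their FPKM depends most on how length is treated.

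**Figure D1:**
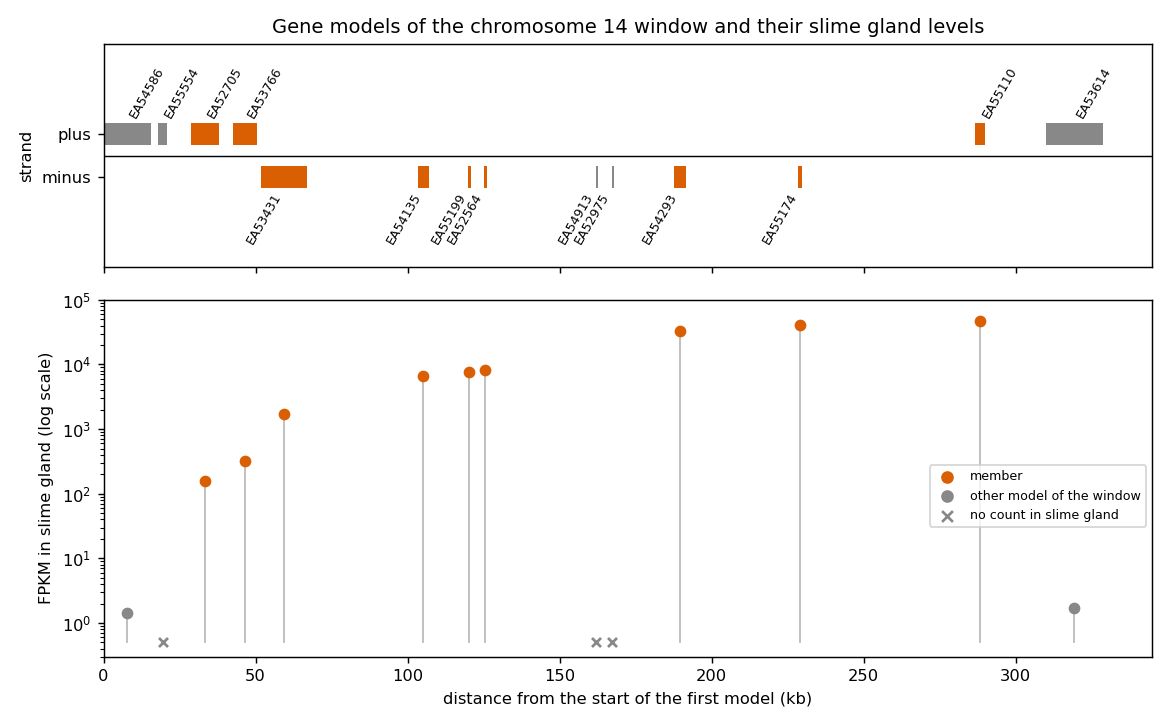
The upper panel places the 14 models of the chromosome 14 window by distance in kb from the start of the first model and by strand, with the 9 members in orange and the other 5 in grey; the lower panel gives the FPKM of each in slime gland on a log scale (1 library), with crosses for models without a count there. The members climb from 159 FPKM for EA52705 to 46492 FPKM for EA55110, between grey models at 1.45 and 1.68 FPKM at either end.

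The 4 members at the low-coordinate end shared an exon structure that the others did not have. Exon lengths alone were compared, without sequence, and whether the shorter models are complete was not tested. EA52705, EA53766, EA53431 and EA54135 each had 10 exons and between 2106 and 2225 exon bases. Read in the direction of transcription, all 4 carried consecutive exons of 96, 177, 126, 114 and 107 bases. Upstream of these lay an exon of 61 bases in 3 of them and of 64 bases in EA53766, and before it one of 215 bases in 3 of them and of 218 bases in EA54135. They differed in length mainly at the ends, with first exons of 662, 682, 664 and 701 bases, in the order named. Their spans differed more than their exons, because EA53431 held 12919 intron bases and EA54135 only 1658.

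The run of 5 exon lengths was picked as the longest one shared by the most members. Its presence in 4 of them follows from that choice. Among all 37562 models it occurred in 5, or 0.0133%, namely the 4 members and EA54586, the skin model at the low-coordinate edge of the same window. The shorter run of 126, 114 and 107 bases occurred in 6 models, the sixth being EA53614, the skin model at the other edge, and all 6 lay in the window. The pair of 114 and 107 bases alone was not particular to the window, as it occurred in 16 models, 6 of them there. The 114-base and 107-base exons add up to 221 bases, and 29 other models carried an exon of 126 bases followed by an undivided one of 221 bases. None of these 29 was in the chromosome 14 window, while 8 of the 19 other listed models with a Filament domain were among them.

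The 5 remaining members were shorter, and their exon lengths were less alike. EA54293 had 10 exons and 1514 exon bases and EA55110 had 11 exons and 1125 exon bases. Both had exons of 96 and 107 bases, and EA55110 one of 126 bases as well, but they also held exons as short as 9 and 12 bases. EA55174 consisted of 2 exons of 633 and 186 bases, EA55199 of 2 exons of 283 and 26 bases, and EA52564 of 3 exons of 54, 125 and 37 bases. The 4 members with the full run were the 4 lowest in slime gland by FPKM, from 159 to 6539, and the other 5 ranged from 7594 to 46492 without overlap. With the read length added to the exon length, EA54135 passed both short models and these ranges overlapped. They overlapped in counts as well, with 421028 for EA54135 and 107396 for EA53431 against 67901 for EA55199 and 51700 for EA52564. The 4 members with the run held 12.1% of the members' counts.

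**Figure D2:**
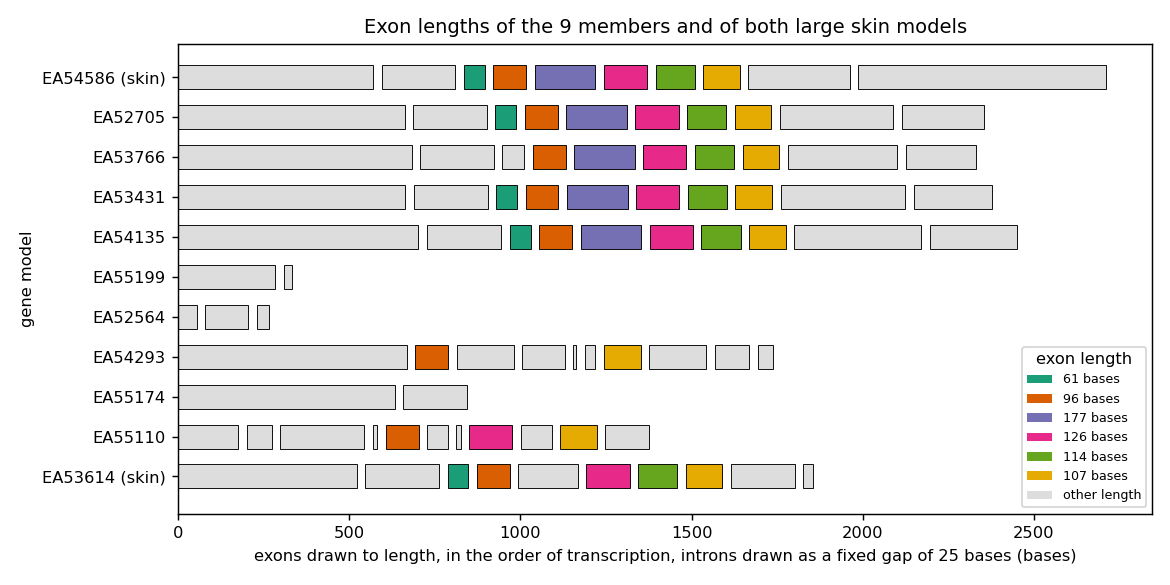
Exons of the 9 members and of the skin models EA54586 and EA53614 are drawn to length in bases in the direction of transcription, each row being 1 model in chromosome order and introns shown only as a fixed gap; colours mark exons of 61, 96, 177, 126, 114 and 107 bases. EA54586 and the first 4 members carry the same run of 5 colours from the 96-base to the 107-base exon, preceded by the 61-base exon in all of these but EA53766, and EA54293 and EA55110 have only single exons of these lengths.

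Each member was compared with its highest other organ, a contrast the choice of members had already used. All 9 were at 10 times every other organ or more, as were 0.613% of the 19238 models that reached 1 FPKM in any organ, and all 9 were highest in slime gland, as were 2.42% of them. EA54293 stood 6271-fold over ovary (5205 to 7627), EA55110 5879-fold over ovary (4923 to 7079) and EA55174 5188-fold over ovary (4206 to 6478). Ovary was also the next organ for EA54135, at 4987-fold, EA52564, at 4454-fold, and EA55199, at 4022-fold. EA53431 stood 1744-fold over gills (1129 to 2856) and EA52705 1631-fold over skin, the latter on 6 skin counts (558 to 7911). The median over the 9 members was 4454-fold, and it was 12253-fold with TMM factors and 13063-fold with DESeq2's size factors, which give slime gland a smaller effective total.

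EA53766 was the member closest to the edge of the rule. Its slime gland level of 321 FPKM stood 35.2-fold (31.3 to 39.8) over its skin level of 9.10 FPKM, while the 8 other members stood at least 1631-fold over their next organ. Just outside the rule, the skin models EA54586 and EA53614 had 1.45 and 1.68 FPKM in slime gland against 542 and 1334 FPKM in skin, EA55554 had no count in slime gland and 6.70 FPKM in skin, and EA54913 and EA52975 were at 0 in both.

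Outside slime gland the members left 2731 counts in the 12 other libraries together, whose assigned totals ranged from 18800367 to 39077785. Whether these counts reflect transcription in those organs was not tested. Of the 108 pairs of a member and an organ, 28 were at 0, where the interval reaches up to 7.38 counts, and 20 reached 1 FPKM. EA54135, EA54293, EA55174 and EA55110 had counts in all 12 organs. EA53766 had counts in 8 organs, EA53431 in 7, EA55199 and EA52564 in 6 each, and EA52705 in 5, with 6 counts at most. The 4 members found in every organ were those with the most counts in slime gland.

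EA55110, the highest member, had 7.91 FPKM in ovary, 5.81 in brain, 1.47 in kidney, 1.11 in skin, 1.08 in adipose tissue, 1.04 in gall bladder, 0.792 in heart, 0.761 in intestine, 0.455 in tongue muscle, 0.236 in gills, 0.176 in blood cells and 0.156 in liver. EA55174 had 7.75 FPKM in ovary, 6.40 in brain, 1.31 in skin, 1.04 in adipose tissue and 0.866 in kidney, and between 0.215 (liver) and 0.579 (blood cells) in the 7 other organs. Ovary and brain thus stood above the remaining organs in both. EA54293, the third of the upper group, had 5.32 FPKM in ovary, 4.60 in brain and 1.16 in adipose tissue, and between 0.232 (liver) and 0.960 (skin) in the 9 other organs. EA54135 had 1.31 FPKM in ovary and 1.17 in brain, and between 0.0178 (blood cells) and 0.323 (adipose tissue) elsewhere. The short models EA55199 and EA52564 had 1.89 and 1.86 FPKM in ovary, from 16 and 11 counts. Elsewhere EA55199 had at most 0.933 FPKM, in brain, where EA52564 had no count, and EA52564 had at most 0.729 FPKM, in kidney, where EA55199 had none. EA52705 stayed at or below 0.0975 FPKM in all 12 organs.

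**Figure D3:**
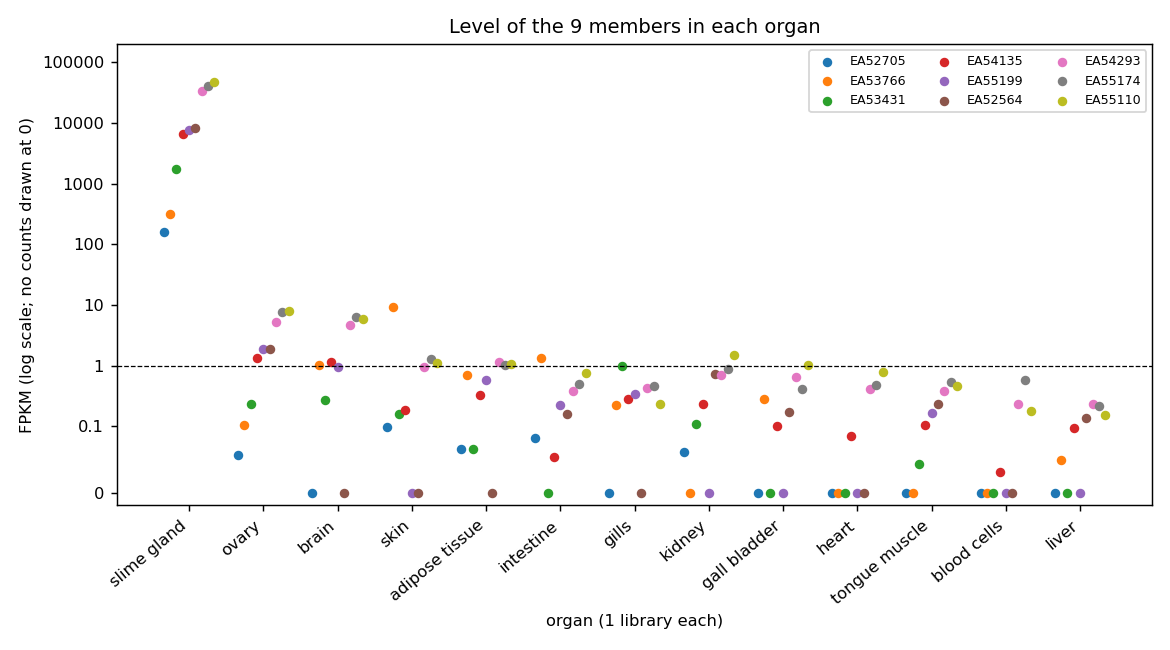
Each point is the FPKM (log scale, points without counts at 0) of 1 of the 9 members in 1 organ (1 library each), with the organs ordered by the members' summed CPM and a dashed line at 1 FPKM. All 9 points of slime gland lie above 150 FPKM, and outside it no point exceeds the 9.10 FPKM of EA53766 in skin.

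With assigned totals, ovary and brain were the organs in which most members reached 1 FPKM. Blood cells, gills, heart, liver and tongue muscle had none at that level. In ovary 6 of 9 members did, against 40.1% of all models, and in brain 5 of 9, against 41.0%. In adipose tissue and skin 3 members did so, against 41.7% and 35.8% of all models. In gall bladder, intestine and kidney 1 member did, against 36.5%, 34.1% and 36.1%. The organs with none had 30.8% of all models at 1 FPKM (blood cells), 39.6% (gills), 34.5% (heart), 25.2% (liver) and 25.1% (tongue muscle). Ovary had 5 members at that level with TMM factors and 4 with DESeq2's size factors. With either, brain, skin and tongue muscle had 3, and adipose tissue and gall bladder none. Without the 10 highest genes skin had 4, and gills and tongue muscle had 1 each. The shares of all models were taken with assigned totals only. Even the highest trace in ovary, 7.91 FPKM of EA55110, had rank 9832 among the models of that library.

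Summed over the 9 members, the trace was 28.0 CPM (counts scaled to the assigned total, without length) in ovary (25.3 to 31.0), 24.4 CPM in brain (21.5 to 27.6) and 23.9 CPM in skin (21.5 to 26.6), against 159170 CPM in slime gland. These 3 organs came from 768, 507 and 691 counts and corresponded to 0.0176%, 0.0153% and 0.0150% of the slime gland level. A step of 3.74-fold (2.89 to 4.91) separated them from adipose tissue with 6.39 CPM. Intestine with 5.0 CPM, gills with 4.63 CPM, kidney with 4.41 CPM and gall bladder with 3.36 CPM came next.

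The lowest traces were those of heart with 2.05 CPM, tongue muscle with 1.92 CPM, blood cells with 1.07 CPM and liver with 0.997 CPM, the last from 34 counts. From ovary to liver the sum differed 28.1-fold. Of the 11 pairs of neighbours in this order only skin and adipose tissue differed beyond counting error, with intervals on pairs of counts. The order depended on the scaling. Tongue muscle moved from place 10 to place 4 and liver from place 12 to place 7 with TMM factors and with DESeq2's size factors, the latter organ at 0.00145% and 0.00143% of slime gland against 0.000626% as reported. The first place changed as well, since skin replaced ovary as the highest with TMM factors (0.0103% of slime gland), with DESeq2's size factors (0.00974%) and with totals that left out the 10 highest genes (0.0157%), and also when EA55110 was left out of the sum (0.0212%).

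**Figure D4:**
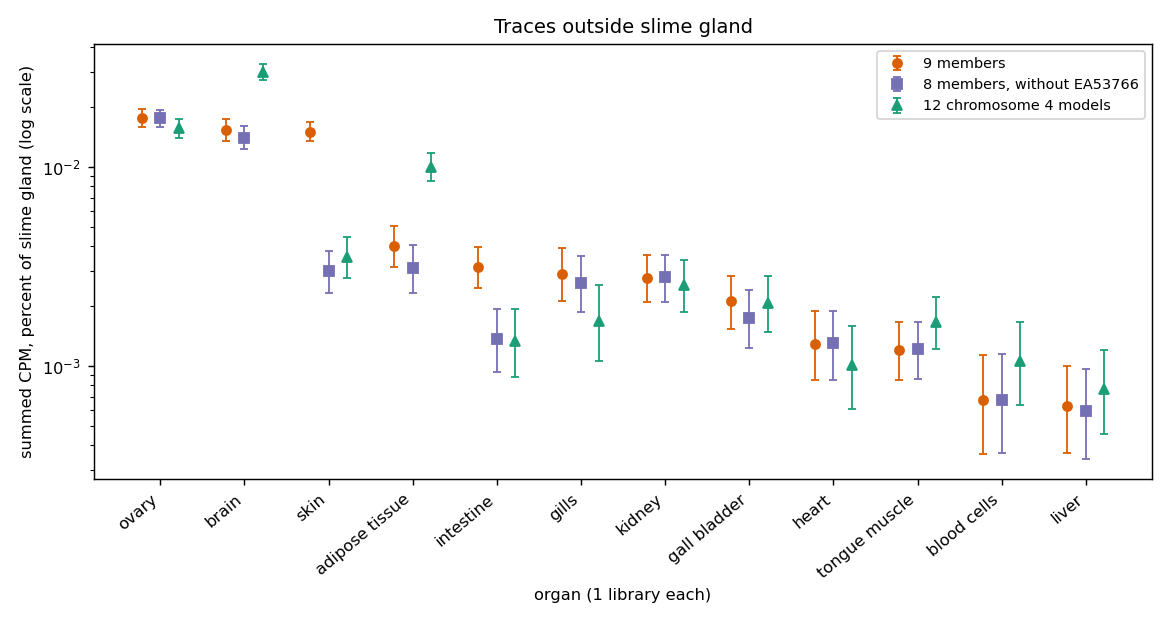
The summed CPM in each of the 12 other organs (1 library each) is shown as a percent of the slime gland value on a log scale, for the 9 members (circles), for 8 members without EA53766 (squares) and for the 12 chromosome 4 models (triangles), with 95% exact intervals of counting error. Skin is at 0.0150% with EA53766 and at 0.00299% without it, and the chromosome 4 models stand above the members in brain and adipose tissue.

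In no organ did the 3 members of the upper group depart from their slime gland proportions beyond counting error on pairs of counts. In slime gland EA55110, EA54293 and EA55174 made up 38.5%, 37.2% and 24.2% of their own summed counts. In ovary their counts were 244, 221 and 174, and in brain 136, 145 and 109. In all 36 pairs of these 3 members and the 12 other organs, the interval of the member's share held its share in slime gland. The intervals were wide where counts were few, as in blood cells with 5, 9 and 12 counts, so smaller departures were not detectable at this depth. In blood cells EA55174 made up 46.2% (19.2 to 74.9) against 24.2% in slime gland. Intervals on single read ends, which are narrower, were not tried for these shares.

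EA53766 did not follow these proportions. It made up 0.424% of the members' counts in slime gland but 80.2% in skin (75.6 to 84.2), 56.8% in intestine (44.7 to 68.4) and 27.4% of the 2731 trace counts together. Its FPKM was 9.10 in skin, 1.35 in intestine, 1.03 in brain, 0.705 in adipose tissue, 0.287 in gall bladder, 0.227 in gills, 0.104 in ovary and 0.0278 in liver, and 0 in blood cells, heart, kidney and tongue muscle. Skin, with 554 counts, thus stood apart from the next organ, intestine, with 83. Its share of the members' counts lay above the slime gland share beyond counting error in 6 organs, namely adipose tissue, brain, gall bladder, gills, intestine and skin, but not in ovary, where 6 of 768 counts gave 0.781%. The skin models of the window, EA54586 and EA53614, were highest in skin as well, with 542 and 1334 FPKM. They had 6.95 and 2.51 FPKM in adipose tissue, and 0.262 and 0.168 in intestine. Their part in the EA53766 traces was not tested.

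EA53431 stood apart in gills. It had 40 counts there, or 0.989 FPKM, and made up 46.0% of the members' counts (30.8 to 61.7) against 2.33% in slime gland. In the 11 other organs it had at most 14 counts, in ovary, and none in blood cells, gall bladder, heart, intestine and liver. The skin model EA53614 at the edge of the window had 37.1 FPKM in gills, its second highest organ, and its part in the EA53431 counts was not tested. EA52705, with only 16 counts outside slime gland, was above its slime gland share in intestine alone, on 4 counts.

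Without EA53766 the traces were more alike. Of 96 pairs of the 8 other members and an organ, 90 intervals held the slime gland share, and the 6 that did not belonged to EA53431, EA54293 and EA55110 in gills, EA52705 in intestine, and EA52705 and EA53431 in skin. The summed trace of skin dropped from 691 to 137 counts and from 23.9 to 4.74 CPM, and that of intestine from 146 to 63 counts. Ovary, with 27.8 CPM, then stood 1.25-fold (1.06 to 1.48) above brain with 22.2 CPM, and brain 4.53-fold (3.36 to 6.20) above adipose tissue with 4.90 CPM. These were the only 2 of the 11 steps beyond counting error. Leaving out EA53766 was chosen after its values were seen.

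**Figure D5:**
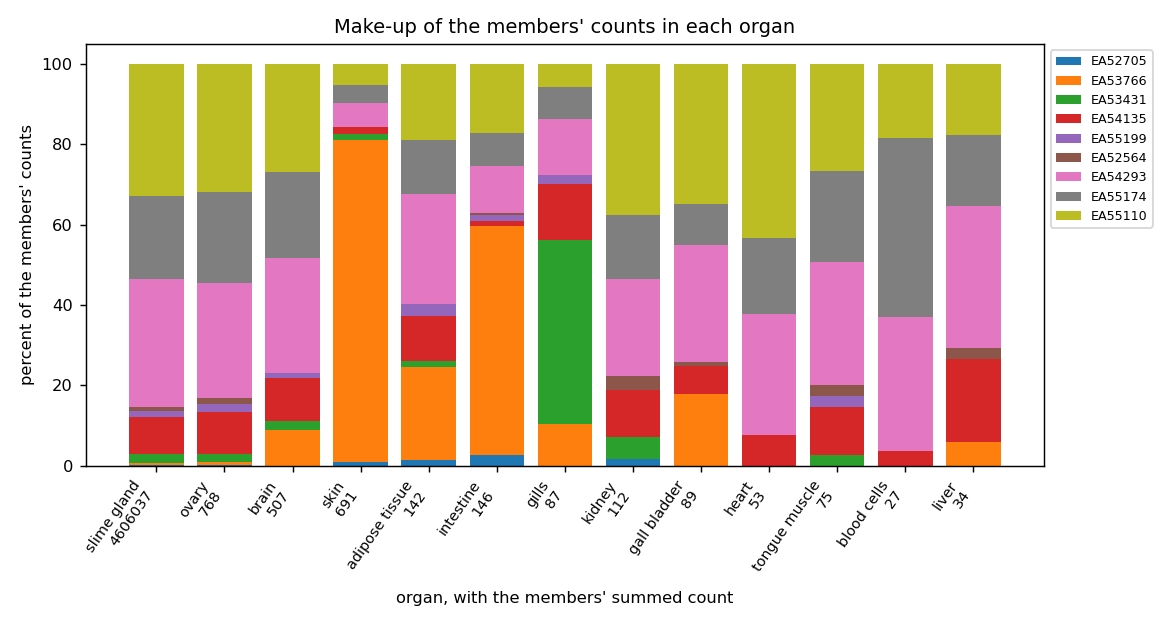
Stacked bars give the percent of the members' counts that each of the 9 members took in slime gland and in the 12 other organs (1 library each), with the members' summed count under each organ name. In ovary the share of every member lies within counting error of its slime gland share, while EA53766 fills 80.2% of the skin bar and 56.8% of the intestine bar, and EA53431 fills 46.0% of the gill bar.

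The most similar set of models in the series lies in a window on chromosome 4, where 12 of 19 models, between positions 87374014 and 87654301, were highest in slime gland and took 14.2% of its counts. The highest by FPKM were EA58776 with 41259 and EA58935 with 21397 in slime gland, at ranks 2 and 8 and both with a Filament domain. In brain the members' trace relative to that of the chromosome 4 models was 0.510 of the ratio in slime gland (0.436 to 0.597), from 507 and 886 counts. In adipose tissue it was 0.401 (0.299 to 0.534), from 142 and 316 counts. Both values are pooled, and the chromosome 4 models differed among themselves in brain. EA59440 had 17449 FPKM in slime gland and 2.75 in brain, against 16435 and 12.5 for EA57284. The member EA55174 had 40194 and 6.40. The pooled value need not hold for each chromosome 4 model. Brain was the highest trace organ of all 12 chromosome 4 models, under each scaling run, whereas with assigned totals it was that of none of the 9 members. With TMM factors it became that of EA54135, and with DESeq2's size factors that of EA54135 and EA54293. This contrast of ranks rests in part on small differences. EA58935 had 3.97 FPKM in brain (97 counts) and 3.39 FPKM in ovary (109 counts), and EA57479 had only 0.317 FPKM in brain. Summed over the 9 members, ovary stood 1.15-fold (0.978 to 1.35) over brain, within counting error on pairs of counts.

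Skin, intestine and gills went the other way. The members' relative trace was 4.25 in skin (3.29 to 5.55), 2.37 in intestine (1.51 to 3.82) and 1.72 in gills (1.01 to 3.01), and in the 7 other organs the interval held 1. Without EA53766 the interval lay above 1 in no organ, with 0.846 in skin (0.599 to 1.19), 1.03 in intestine (0.595 to 1.78) and 1.55 in gills (0.901 to 2.74), while brain and adipose tissue stayed below at 0.467 and 0.309. In ovary the value was 1.13 (0.968 to 1.32) with all members. The pooled difference in brain and adipose tissue was therefore not carried by EA53766.

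Across the 13 organs, the members varied together on the scale of log2(FPKM + 1), as their choice for one organ implies. The Pearson correlation of each with the mean of the other 8 was between 0.989 and 0.999 for 8 members and 0.914 for EA53766. Outside the members the highest correlation with their mean was 0.998, for the chromosome 4 model EA58042, and 200 models had one of 0.95 or more. The points share their libraries, and slime gland sets most of each value.

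Beyond both windows, the models with at least 100 FPKM in slime gland that were most alike were EA76317 (208 FPKM, chromosome 3), EA81172 (374 FPKM, chromosome 17), EA03687 (241 FPKM, chromosome 6), EA08884 (1202 FPKM, on a scaffold not assigned to a chromosome) and EA31825 (156 FPKM, chromosome 7), with correlations of 0.992 to 0.995. Of the 491 models at 100 FPKM or more there, 23 had a correlation of 0.95 or more. None of the 5 named was annotated in that table. EA03687, at 4389083 to 4403758 on chromosome 6, shared exon lengths with the low-coordinate members, with consecutive exons of 61, 96, 177 and 126 bases, followed by the undivided exon of 221 bases. It had 16324 counts in slime gland and stood 1023-fold over kidney, its next organ.

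Of the 19 other listed models with a Filament domain, 13 reached 1 FPKM in an organ. Of these, 8 were highest in slime gland, against 2.42% of all 19238 models at that level. All 8 were at 10 times every other organ or more, against 0.613%. These were 7 models of the chromosome 4 window, with EA58776, EA58935 and EA59440 (17449 FPKM) the highest, and EA02654 on chromosome 6, which reached 1953 FPKM in slime gland from 121644 counts and had 1241 counts in skin. The chromosome 4 window was taken as a slime gland cluster, so its 7 models follow from that choice and only EA02654 lies outside it. None of the 5 expressed models on chromosome 1 was highest in slime gland. Among them *KRT14-4* (EA36694), named for an epithelial keratin, reached 822 FPKM in gall bladder against 146 in slime gland, and *NEFM* (EA24108), named for a neurofilament protein, reached 931 FPKM in adipose tissue against 0.858 in slime gland. Of the models high outside slime gland, the third was EA02654 in skin.

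Slime gland levels were also read for lists of cell type markers that carry symbols, all of them on chromosome 1. The lists hold no slime gland marker, so they cannot test that label. The 8 muscle models were all detected in slime gland and summed to 1472 FPKM there, against 0.589 to 28641 FPKM in the other organs. All but *MYL2-1* exceeded in slime gland their own median over the other organs, but their highest organs differed. The largest part of the sum was *NEB-4*, at 774 FPKM, with a maximum of 1160 FPKM in heart. *TTN-5*, at 50.2 FPKM, was just below its maximum of 58.0 FPKM in tongue muscle. *NEB-3*, *TTN-2* and *TTN-3* were at 2.91, 2.42 and 0.714 FPKM, with maxima of 7.90 in heart, and of 5.73 and 1.32 FPKM in tongue muscle. *NEBL* and *NEB-2* were highest in slime gland, with 384 and 256 FPKM. *MYL2-1*, named for a myosin light chain, had 1.40 FPKM there and 28576 FPKM in tongue muscle, nearly all of the highest sum. The blood list held only 4 models named for spectrins, *SPTBN5-1*, *SPTBN5-2*, *SPTBN5-3* and *SPTAN1-1*, taken by the start of their symbols. It summed to 1.20 FPKM in slime gland against 0.0324 to 39.5 FPKM elsewhere, with 2 models at 0. None of the 4 was highest in blood cells and the highest sum was in intestine, so the list did not mark blood in these libraries. The neuron list held only *SYNPR-2* and *NEFM* and summed to 56.3 FPKM against 24.7 to 954 FPKM, the last in adipose tissue. *SYNPR-2* gave 55.5 FPKM of the slime gland sum and was highest in kidney, with 129 FPKM. *NEFM* was highest in adipose tissue. Neither was highest in brain, so the list did not set brain apart in these libraries. Whether the adipose tissue library holds neurons was not tested. The epithelial list, of 9 keratin models, summed to 147 FPKM against 1.31 to 822 FPKM, with 6 at 0 in slime gland. *KRT14-4* gave 146 FPKM of the slime gland sum and was highest in gall bladder, with 822 FPKM. None of the 9 was highest in skin, so the list did not mark skin in these libraries. The part of other cell types in the traces was not tested, and in whole organs fewer cells of a type and less RNA per cell cannot be told apart.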

How the data were processed

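RNA from 13 organs was sequenced as 1 strand-specific library of paired reads of 150 bases per organ. The table deposited holds raw counts of 37562 gene models. The authors made them by mapping with STAR (2.5.2b) and summing read ends over exons with featureCounts (1.6.1, per the file header), with no normalization. Per the file header neither pairs nor strand were counted, and reads matching several places were left out, so near-identical copies are uncertain. Of the counts from 1 to 4, 83.6% were even, so exact Poisson and binomial (Clopper-Pearson) intervals at the 95% level were computed on pairs of counts. Among the 80 nonzero counts of a member outside slime gland, only 61.25% were even. Intervals on single read ends are narrower, so a step or share called within counting error may depend on the pairing. Read ends were tried only for the members' share of slime gland counts, with 15.904 to 15.930% against 15.898 to 15.936% on pairs. Assigned totals ranged from 18800367 to 39077785. These intervals cover counting error only.

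FPKM and CPM were computed from the count, the exon length and the assigned total, with a level of 1 FPKM taken as reached and a 10-fold excess as called. Likeness was the Pearson correlation of log2(FPKM + 1). The scaffold was assigned to chromosome 14 from 24 gene IDs placed on it by the study, which names no assembly for the count table in the sources used here. Domains and families were joined by position to the 1998 rows of the source table used here, and symbols by ID. Libraries were also scaled by TMM (edgeR 4.0.16), by size factors (DESeq2 1.42.0) and by totals leaving out each library's 10 highest genes, and other lengths, thresholds and pseudocounts were tried. Leaving out EA53766 and adding the read length were chosen after seeing the data. The ratios with their intervals and the correlation were tested on simulated data. These held even counts only, and the planted models had more counts than most traces here. The Poisson intervals and the intervals of shares were not tested in this way. Scripts ran in Python 3.11.15 with scipy 1.17.1, pandas 2.3.3 and numpy 2.4.6, and in R 4.3.3.

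The members and lists were chosen with earlier results of these data known. The named genes are the 9 members, the 5 other models of the window, the 2 highest chromosome 4 models, the 5 most alike models outside both windows with at least 100 FPKM in slime gland, and, of the other Filament models, the 3 highest in slime gland and the 3 highest in another organ. EA58042, EA57284 and the marker genes named were chosen after their values were seen.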

Additional observations from a re-analysis of the deposited data

How the results depend on the processing

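The largest changes came from library scaling. Relative to the assigned totals, TMM factors shifted slime gland against the other organs by between -1.21 (liver) and 1.46 (ovary) on the log2 scale, with a median of 0.91. The members' share of slime gland counts was 24.0% with totals that left out the 10 highest genes, which include members. The median ratio to the next organ was 12253 with TMM factors and 13063 with DESeq2's size factors, against 4454 as reported. The highest trace, as a percent of slime gland, was 0.0103 with TMM factors, 0.00974 with DESeq2's size factors and 0.0157 without the 10 highest genes, and 0.0212 without EA55110, each time in skin. The 3 highest members held 73.4% of the summed FPKM with the read length taken off the exon length and 85.3% with it added. Of the 108 pairs of member and organ, 34 reached 0.5 FPKM and 7 reached 2 FPKM. EA55110 made up 27.6% of the trace counts without skin and 30.3% without EA53766, against 22.0% as reported. For single members, 19 of 27 ratios to the next organ moved beyond counting error with another scaling, and no ratio fell below 1, the lowest being 33.7 for EA53766. The likeness and the count of other Filament models kept their values within 0.01 and 1.5 times under the alternatives run, but with a pseudocount of 0.1 FPKM the most alike model, EA83050, lay outside the chromosome 4 window. Of the 5 named most alike models outside both windows, 2 were among the highest 5 on the linear FPKM scale and 4 with that pseudocount or without adipose tissue. No paired analysis was possible because each organ has 1 library. Without replicates, variation between animals could not be measured, and traces of a few counts limit the comparison of organs.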
